A study of Mus musculus with 24 samples.

Results

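The 8 genes described here encode the DNA methyltransferases DNMT1, DNMT3A and DNMT3B, the DNMT3B and DNMT3A cofactor DNMT3L, the hemimethylated-DNA binding protein UHRF1, and the dioxygenases TET1, TET2 and TET3. They were chosen by gene symbol, and each matched 1 of the 49705 entries in the expression table. All 8 passed the filter on low values (10 or more normalized counts in 3 or more libraries), which kept 21005 genes for testing. RNA-seq was performed on optic vesicle (OV) organoids grown from Rx-GFP K/I EB5 cells, a mouse embryonic stem cell (mESC) line that carries GFP knocked into the Rax locus. The 24 libraries form 8 groups of 3 replicates: live cells at days 0, 1, 2 and 3 of organoid differentiation, and GFP-positive and GFP-negative cells sorted at days 4 and 5. The labels give a KOSR-supplemented medium for these organoids, whereas the study's methods assign that medium to knockout organoids and a chemically defined one to the initial organoids; the conflict was not resolved here. Matrigel was present from day 1, and each replicate pooled the cells of several organoids of this single line. According to the study's methods the gate put cells with weak GFP into the GFP-negative fraction, so that this fraction is not free of Rax-expressing cells.

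DNA methylation in mammals is laid down on CG dinucleotides by DNMT3A and DNMT3B and copied after replication by DNMT1, which UHRF1 brings to hemimethylated sites. DNMT3L has no catalytic activity of its own and stimulates the de novo enzymes; it is known from germ cells and pluripotent cells. The TET proteins oxidize methylcytosine, which starts its removal. Exit from naive pluripotency is known for a rise of DNMT3B.

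In mouse genome build mm10, which the files use, the genes lie on 7 chromosomes: Dnmt1 at chr9:20907209-20959888, Uhrf1 at chr17:56303321-56323486, Dnmt3a at chr12:3806007-3914443, Dnmt3b at chr2:153649450-153687730, Dnmt3l at chr10:78041947-78063622, Tet1 at chr10:62804570-62908996, Tet2 at chr3:133463679-133545139 and Tet3 at chr6:83362373-83459084. Starts and ends were the same in the GENCODE M21 annotation for all 8. Since the genes themselves act on CG dinucleotides, the 150 bases before the start site are shown for the de novo enzymes, for their cofactor Dnmt3l, and for Tet2, the CG-richest of the set. Sequences are from RefSeq (GRCm38.p6), read 5′ to 3′ on the strand of the gene, with each CG in capitals. The windows hold no annotated exon.
Dnmt3b, chr2:153649299-153649448, plus strand: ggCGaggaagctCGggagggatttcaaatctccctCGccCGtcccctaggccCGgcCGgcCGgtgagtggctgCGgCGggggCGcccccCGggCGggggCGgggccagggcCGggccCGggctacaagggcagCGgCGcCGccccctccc
Dnmt3a, chr12:3806830-3806979, plus strand: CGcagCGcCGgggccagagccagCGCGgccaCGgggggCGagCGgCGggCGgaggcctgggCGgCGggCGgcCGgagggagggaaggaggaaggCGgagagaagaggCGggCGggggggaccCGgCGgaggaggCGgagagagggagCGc
Dnmt3l, start 1, chr10:78042137-78042286, plus strand: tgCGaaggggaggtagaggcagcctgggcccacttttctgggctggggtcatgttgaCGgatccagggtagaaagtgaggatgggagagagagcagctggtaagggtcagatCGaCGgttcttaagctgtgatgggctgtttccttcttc
Dnmt3l, start 2, chr10:78049692-78049841, plus strand: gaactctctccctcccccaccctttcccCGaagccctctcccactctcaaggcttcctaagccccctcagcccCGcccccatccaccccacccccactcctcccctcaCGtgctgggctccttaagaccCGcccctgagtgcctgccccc
Dnmt3l, start 3, chr10:78055185-78055334, plus strand: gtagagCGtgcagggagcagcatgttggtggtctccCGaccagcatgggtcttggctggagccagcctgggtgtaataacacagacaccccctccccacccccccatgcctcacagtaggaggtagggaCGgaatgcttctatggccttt
Tet2, chr3:133544391-133544540, minus strand: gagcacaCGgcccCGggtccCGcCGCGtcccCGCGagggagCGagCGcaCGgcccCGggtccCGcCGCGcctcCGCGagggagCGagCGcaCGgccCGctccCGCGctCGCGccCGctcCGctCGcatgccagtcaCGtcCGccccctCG

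The 8 genes had 15 start sites among the 32851 promoters of the table. Over the 250 bases before the start, Dnmt3b held 21 CG dinucleotides and Tet2 51, which was more than in 99.9% of all promoters. Dnmt3a held 38 at the start shown, and 40 and 15 at its other starts. The 3 starts of Dnmt3l held 5, 4 and 3, against a median of 6 over all promoters, 92.1% of which held at least 1. GGGCGG, searched on both strands, occurred 3 times in Dnmt3b and 1 time in Tet2. Dnmt3a held it 5 times at the start shown, and 4 times and 1 time at the others. Dnmt3l held it 2 times in the window of start 2 and 0 times in its other windows. Of all promoters, 32.7% held it. GGGCGG contains a CG, so both counts overlap. The RNA data do not tell which Dnmt3a or Dnmt3l start was used.

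Library totals lay between 39849111 and 51587535 normalized counts. One library stood apart. Day 0 replicate 1 had a mean Spearman correlation of 0.953 with the other replicates of its group, where the other 23 libraries had 0.970 to 0.992. Its values varied with transcript length: against the other 2 day 0 libraries, the median log2 difference was 0.46 for the shortest and -0.50 for the longest of 4 equal bins of genes by coding transcript length (Spearman's rho -0.387 over 16446 genes, as a description, where the other 23 libraries had -0.305 to 0.335). The values of 0.335 and 0.325 were those of day 0 replicates 3 and 2, whose reference included replicate 1. In day 0 replicate 1 itself the bins thus differed as follows for the 8 genes. Replicate 1 was low for 7 of the 8 genes, by 0.97 (Uhrf1) to 1.89 (Tet1) on the log2 scale, and higher by 0.31 for Dnmt3l, which has the shortest coding transcript of the set (1.82 kb). The part of transcript length in these values was not tested. All 8 groups share an estimate of the spread in the fit, so this library enters the error of every comparison. Calls of the 8 genes that turned on it are also given without it, whereas single genes of the lists are mostly given with all libraries only.

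**Figure D1:**
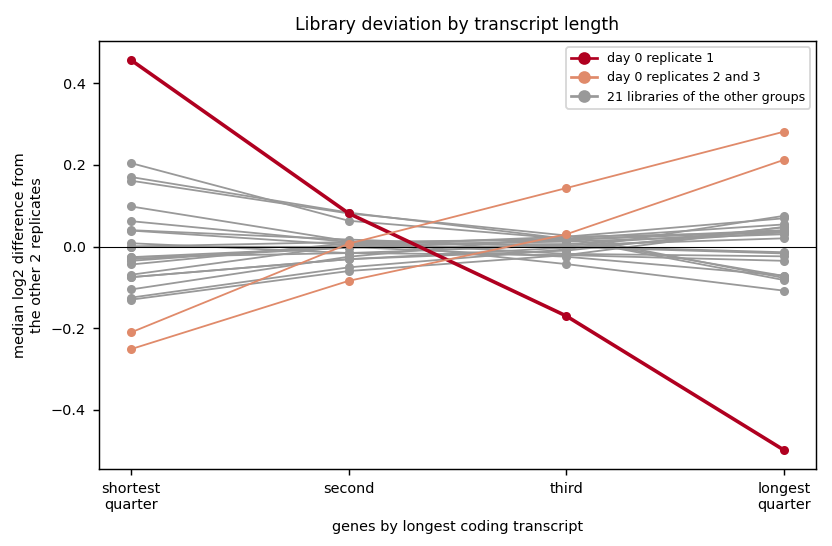
Median log2 difference of each library from the other 2 replicates of its group (vertical axis), for genes in 4 bins of equal size by the length of their longest coding transcript (horizontal axis). Day 0 replicate 1 runs from 0.46 in the shortest bin to -0.50 in the longest, whereas the median in the longest bin lay between -0.11 and 0.28 in the other 23 libraries. The 0.28 is day 0 replicate 2, whose reference included replicate 1. Outside day 0 the highest was 0.075 (day 3 replicate 3).

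The labelled cell types were checked against their markers. Rax was at 89.3 to 156 normalized counts at day 3 and at 9100.0 to 9967 in GFP-positive cells at day 4, and the summed eye-field markers (Rax, Pax6, Lhx2, Six3, Six6) reached 54800.0 to 57310.0 in GFP-positive cells at day 5 against 8351 to 9094 in GFP-negative cells. The pluripotency markers Pou5f1, Nanog and Zfp42 summed to 65960.0 to 81960.0 at day 0 and to 25490.0 to 34060.0 at day 3. They remained higher in the GFP-negative fraction (2877 to 3443 at day 5) than in the GFP-positive fraction (199 to 246). Fewer cells of a type and less RNA per cell cannot be told apart in these bulk samples.

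**Figure D2:**
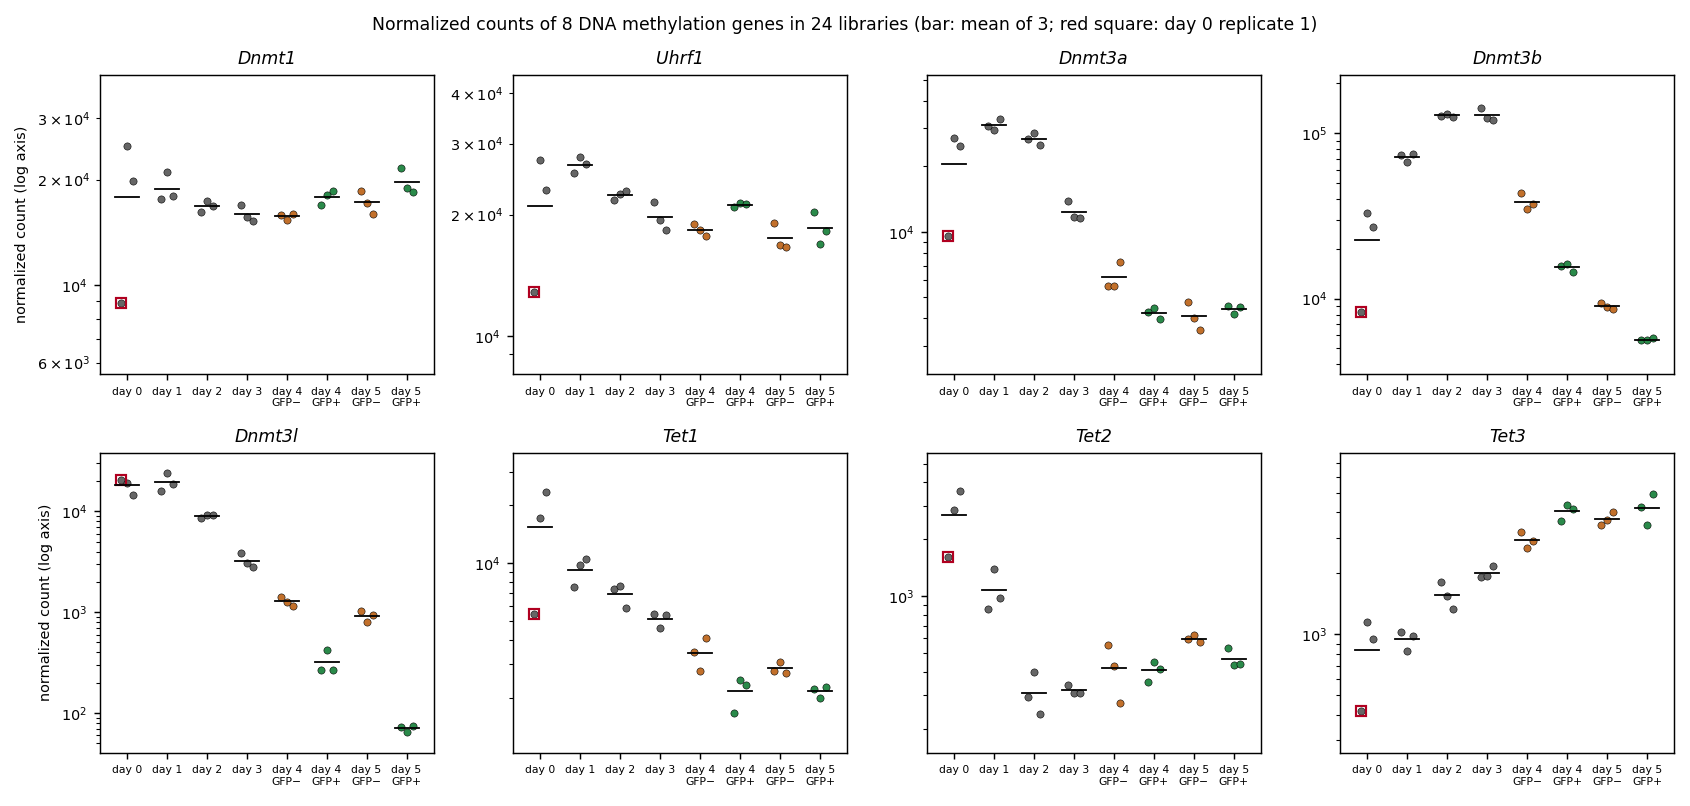
Normalized counts (vertical axes, log scale, a range of its own in each panel) of the 8 genes in the 24 libraries by group; points are libraries, bars the mean of 3, and the red square marks day 0 replicate 1. Dnmt3b peaks at days 2 and 3, Dnmt3l falls from 18105 at day 0 to 70.3 in day 5 GFP-positive cells, Tet3 rises, and Dnmt1 and Uhrf1 stay within a narrow band apart from the marked library.

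With all libraries, 2 or 3 of the 8 genes passed the test (limma, Benjamini-Hochberg adjusted p under 0.05) at each daily step up to day 3. From day 0 to day 1, 1 rose and 1 fell, where 5.23% and 4.79% of all genes tested rose and fell. Between days 1 and 2, 1 rose and 2 fell (9.03% and 7.54% of all genes), and between days 2 and 3 none rose and 2 fell (7.46% and 6.99%). Over the whole interval from day 0 to day 3, 2 rose and 3 fell, against 21.1% and 22.6%. Without day 0 replicate 1 these counts became 1 and 2, 2 and 3, 1 and 2, and 2 and 6, and the shares of all genes that rose and fell also grew, to 6.57% and 7.43%, 13.1% and 11.2%, 12.2% and 12.2%, and 24.1% and 26.1%.

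At the step to GFP-positive cells 5 of the 8 changed. From day 3 to GFP-positive cells at day 4, 1 rose and 4 fell, where 17.1% of all genes rose and 20.9% fell; the median log2-fold-change of the 8 was -0.58, against -0.01 over all genes. From day 3 to GFP-negative cells at day 4, none rose and 3 fell (9.49% and 9.01% of all genes), or 1 and 4 without day 0 replicate 1 (13.1% and 13.4%). Between days 4 and 5, 2 fell and none rose in GFP-positive cells (5.24% and 4.57%), and 1 fell and none rose in GFP-negative cells (4.45% and 5.72%), or 2 and none without that library (8.37% and 9.70%). Day 0 and GFP-positive day 5 cells differed at 6 of the 8 genes, 1 higher and 5 lower at day 5, while 29.3% and 32.1% of all genes were higher and lower; without day 0 replicate 1 the counts were 1 and 6 (30.8% and 34.0%).

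The maintenance genes passed the test in no comparison with all libraries. Dnmt1, which encodes the enzyme that copies methylation onto the new strand, had 17637, 20978 and 17981 normalized counts at day 1, 16905, 15697 and 15203 at day 3, and 21530.3, 18966 and 18425 in GFP-positive cells at day 5. The highest day 3 library was below the lowest day 1 library by less than the day 1 libraries differed among themselves. At day 0 the 3 libraries had 8898, 24969.5 and 19806, the first being replicate 1. Dnmt1 passed the test in none of the 12 comparisons (limma; lowest adjusted p = 0.321), and its log2 difference from day 0 to day 3 was -0.04 ± 0.22 (SE; limma adjusted p = 0.9). Without day 0 replicate 1 that difference was -0.48 ± 0.10 (limma adjusted p = 0.000539), so that the fall from day 0 to day 3 depends on that library.

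Uhrf1 also had its lowest library in day 0 replicate 1, at 12844. Its other libraries included 25341, 27824 and 26677 at day 1, 21784, 22545 and 22827 at day 2, and 21484, 19399 and 18291 at day 3. All day 1 values exceeded all day 2 values, but the step, -0.25 ± 0.17, did not pass (limma adjusted p = 0.38); without day 0 replicate 1 it did (limma adjusted p = 0.036). Uhrf1 passed in none of the 12 comparisons with all libraries (limma; lowest adjusted p = 0.154, from day 0 to day 1). In day 5 GFP-positive cells it had 20344, 16881 and 18184. Without that library Uhrf1 fell from day 0 to day 3 by 0.35 on the log2 scale (limma adjusted p = 0.00409) and was 0.45 ± 0.09 lower in these cells than at day 0 on the log2 scale (limma adjusted p = 0.000315). Dnmt1 and Uhrf1 are expressed in replicating cells, and of 12 replication genes (Mcm2 to Mcm7, Mki67, Top2a, Rrm2, Ccna2, Cdk1, Ccne1), 1 rose and 4 fell from day 0 to day 3 and 1 rose and 1 fell from day 3 to GFP-positive day 4, with medians of -0.06 and 0.02, where 21.1% and 22.6%, and then 17.1% and 20.9%, of all genes rose and fell (5 and 4 changed without day 0 replicate 1, where 24.1% and 26.1%, and then 21.4% and 25%, of all genes rose and fell). Uhrf2, the paralog of Uhrf1, rose from day 0 to day 3 by 0.64 ± 0.185 (limma adjusted p = 0.00796). Its day 0 libraries had 4298, 2318 and 2378 normalized counts, the first being replicate 1.

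Dnmt3b, a de novo methyltransferase, was the member with the largest rise. It had 8255, 32820.0 and 26991 normalized counts at day 0, 73927, 66927 and 75365 at day 1, 127590.0, 130428 and 125843 at day 2, and 141442, 123445 and 119697 at day 3. Every library of day 1 exceeded every library of day 0, and those of days 2 and 3 overlapped. From day 0 to day 1 it rose by 1.89 ± 0.29 on the log2 scale (limma adjusted p = 0.000194), or by 1.27 ± 0.10 without day 0 replicate 1 (limma adjusted p = 1.19e-07). When only these 2 groups were fitted, with 6 libraries, the adjusted p was 0.169. From day 0 to day 3 the rise was 6.59-fold, a log2-fold-change of 2.72 ± 0.29 (limma adjusted p = 1.66e-07), and 2.10 ± 0.10 without that library. The step from day 1 to day 2, 0.83 ± 0.29, did not pass (limma adjusted p = 0.0559), and did without that library (1.33e-06).

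Dnmt3b then fell. It had 15731, 16196 and 14395 in GFP-positive cells at day 4 and 5577, 5591 and 5751 at day 5. All of these lie below every day 1 library. The fall from day 3 to GFP-positive day 4 was 8.29-fold (log2-fold-change -3.05 ± 0.29, limma adjusted p = 3.03e-08), and a further 2.73-fold to day 5 (limma adjusted p = 0.00188). In GFP-negative cells the values were 43398, 34664 and 37436 at day 4 and 9353, 8932 and 8664 at day 5, a fall of 3.34-fold from day 3 and of 4.27-fold between days 4 and 5 (limma adjusted p = 0.000189 and 5.07e-05). Dnmt3c, a close copy of Dnmt3b, had at most 28.6 normalized counts in any library, and the antisense transcript Dnmt3bos at most 24.1; how reads were shared between them and Dnmt3b is not given in the sources used here.

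Dnmt3a, the second de novo enzyme, fell between day 2 and day 4. It had 30766, 29392 and 32979 at day 1, 26715, 28326 and 25030.0 at day 2, and 13814, 11736 and 11580.3 at day 3. The 3 groups did not overlap. The fall from day 2 to day 3 was 2.16-fold (log2-fold-change -1.11 ± 0.24, limma adjusted p = 0.0035). It fell by a further 2.92-fold to 4259, 4455 and 3961 in GFP-positive cells at day 4 (limma adjusted p = 2.36e-05) and by 2.01-fold to 5667, 5640.2 and 7229 in GFP-negative cells (limma adjusted p = 0.00466). At day 5 both fractions overlapped, at 4574, 4212 and 4526 in GFP-positive and 4739.9, 4037 and 3547 in GFP-negative cells. The step from day 4 to day 5 in GFP-negative cells was -0.59 ± 0.24 (limma adjusted p = 0.136, and 0.000564 without day 0 replicate 1). Day 0 values were 9536, 26926 and 24741, and the difference from day 0 to day 1, 0.74 ± 0.24, just missed the threshold (limma adjusted p = 0.054), although every day 1 library exceeded every day 0 library. It passed with a filter of 50 normalized counts (limma adjusted p = 0.0474) and with quantile normalization (0.0458), and without day 0 replicate 1 it was 0.27 (limma adjusted p = 0.163). The difference from day 0 to day 3 also missed it, -0.59 ± 0.24 (limma adjusted p = 0.0539). Without day 0 replicate 1 that difference was -1.07 ± 0.12 (limma adjusted p = 2.86e-07).

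The ratio of the de novo enzymes was lowest at day 3. The mean log2 ratio of Dnmt3a to Dnmt3b, taken within each library, was -0.07 at day 0, -1.22 at day 1, -2.26 at day 2 and -3.37 at day 3, where Dnmt3b had 10.4 times the normalized counts of Dnmt3a (uncorrected for length). It then rose to -1.87 and -0.35 in GFP-positive cells at days 4 and 5, and to -2.64 and -1.14 in GFP-negative cells. Groups did not overlap in any of the 11 comparisons of 2 groups, but day 0 and GFP-positive day 5 nearly touched. Their nearest libraries both print as -0.286, and their means differed by -0.28. The exact permutation test of 3 against 3 libraries gave p = 0.1 in each of the 11 (two-sided), the smallest p that it can give. None of the 44 ratio comparisons made over 4 gene pairs could therefore pass 0.05. Groups of Tet1 over Tet2 and of Dnmt1 over Uhrf1 overlapped in some comparisons. How often ratios of other genes separate was not tested. The 3 day 0 values of Dnmt3a over Dnmt3b lay between -0.29 and 0.21, the highest being that of day 0 replicate 1. Both genes differ in transcript length, and the part of length in this library's ratio was not tested.

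**Figure D3:**
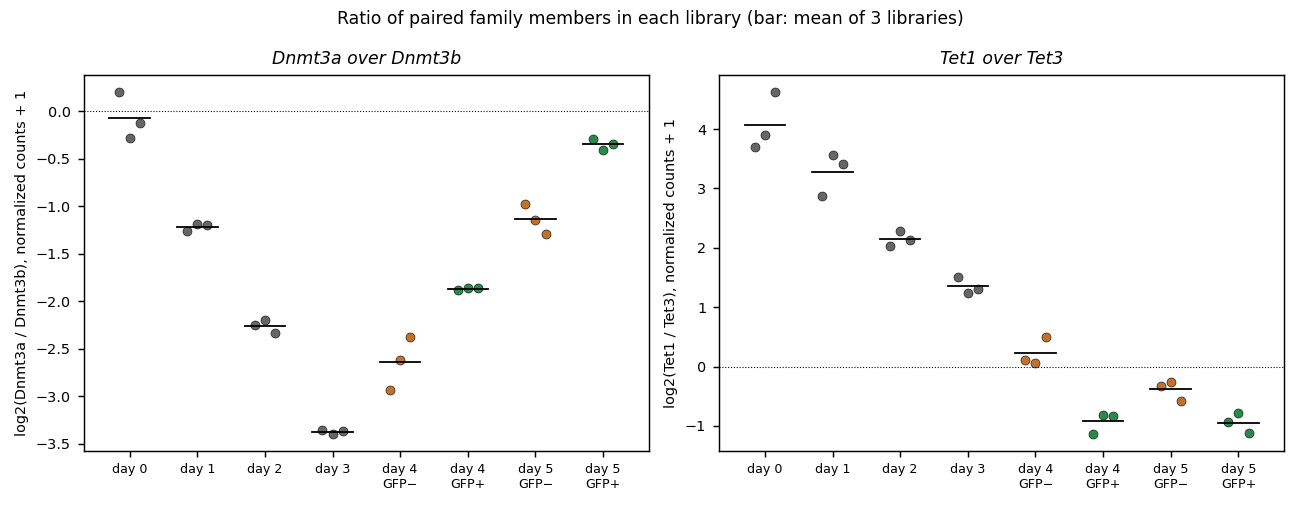
Log2 ratio of Dnmt3a to Dnmt3b (left) and of Tet1 to Tet3 (right) in each of the 24 libraries by group; points are libraries and bars the mean of 3. The Dnmt3a ratio descends to -3.37 at day 3 and returns to -0.35 in day 5 GFP-positive cells, while the Tet1 ratio descends from 4.08 to -0.95.

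Dnmt3l, the catalytically inactive cofactor, had the widest range of the 8. It was high at day 0, with 20700.1, 18949.8 and 14666 normalized counts, and at day 1, with 15898, 23837 and 18553; these groups overlapped. It fell by 2.14-fold to 8621, 9108 and 9115 at day 2 (limma adjusted p = 0.000203) and by 2.78-fold to 3865, 3091 and 2777 at day 3 (limma adjusted p = 1.37e-05). In GFP-positive cells it had 265, 422 and 264 at day 4 and 72.3, 64.7 and 73.8 at day 5. The fall from day 3 to GFP-positive day 4 was 10.4-fold (log2-fold-change -3.38 ± 0.18, limma adjusted p = 4.64e-12), and that from day 0 to GFP-positive day 5 was 252-fold (log2-fold-change -7.98 ± 0.18, limma adjusted p = 2.2e-18). GFP-negative cells had 1413, 1271 and 1156 at day 4, a 2.52-fold fall from day 3 (limma adjusted p = 1.59e-05), and 1036, 803 and 934 at day 5.

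Dnmt3l overlaps Aire on the opposite strand. Aire had 2301 to 3155 normalized counts at day 0 and 11.7 to 32.3 in day 5 GFP-positive cells, and 9.77% to 49.9% of the Dnmt3l value in each library. Over the 24 libraries the log2 values of both genes had a Pearson r of 0.981, as a description; the libraries share days and sorts. The strandedness of the counting is not given in the sources used here, so reads of these genes cannot be told apart with certainty.

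Tet1, the dioxygenase with the highest day 0 level per kilobase, was lower at day 3 than at day 0 and lower again in GFP-positive cells at day 4. It had 5424, 17220.0 and 23481 at day 0, 7554, 9799.5 and 10476 at day 1, 7373, 7583 and 5877 at day 2, and 5449, 4585 and 5396 at day 3. The day 0 libraries were spread widely and overlap those of day 1. From day 0 to day 3 Tet1 fell by 2.53-fold (log2-fold-change -1.34 ± 0.32, limma adjusted p = 0.00197), by 1.97 ± 0.18 on the log2 scale without day 0 replicate 1, and with an adjusted p of 0.0861 when only these 2 groups were fitted. In GFP-positive cells it had 1659.7, 2485 and 2333 at day 4, 2.41-fold lower than at day 3 (limma adjusted p = 0.0036), and 2221, 2005 and 2268 at day 5, where the 2 days overlapped. The steps from day 1 to 2 and from day 2 to 3 did not pass (limma adjusted p = 0.458 and 0.422). Both passed when only the groups compared were fitted (limma adjusted p = 0.0361 and 0.0336). In GFP-negative cells the values were 3458, 2764 and 4075 at day 4 and 2770.4, 3082 and 2701 at day 5. The difference of Tet1 from day 0 to day 1 (-0.50 ± 0.32) and from day 3 to GFP-negative day 4 (-0.60 ± 0.32) did not pass (limma adjusted p = 0.399 and 0.237). Without day 0 replicate 1 they were -1.13 and -0.60 and passed (limma adjusted p = 0.000241 and 0.00962).

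Tet2 fell early and then stayed low. Its libraries had 1622, 2847 and 3576 at day 0, 858, 1391 and 977 at day 1, and 294, 397 and 239 at day 2. These 3 groups did not overlap. The falls were 2.42-fold to day 1 (limma adjusted p = 0.00266, and 0.165 with only these 2 groups) and 3.46-fold to day 2 (limma adjusted p = 5.67e-05). From day 3 onwards all groups had between 275 and 627 normalized counts, and none of the comparisons among them passed (limma; smallest adjusted p = 0.191).

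Tet3 was the only TET gene that rose. It had 417, 1149.7 and 946 at day 0, 1031, 825 and 979.8 at day 1, 1809, 1548 and 1339 at day 2, and 1919, 1935 and 2169 at day 3. From day 2 every library exceeded every day 0 library. The rise from day 0 to day 3 was 2.61-fold (log2-fold-change 1.38 ± 0.24, limma adjusted p = 6.81e-05), or 0.94 ± 0.15 on the log2 scale without day 0 replicate 1 (limma adjusted p = 1.96e-05). The step from day 1 to day 2, 0.72 ± 0.24 (limma adjusted p = 0.0404), was lost in 5 of the 24 fits that left out 1 library, those without day 1 replicate 1, 2 or 3 or day 2 replicate 1 or 2. In GFP-positive cells Tet3 had 3629, 4365 and 4147 at day 4, 2.01-fold above day 3 (limma adjusted p = 0.00177), and 4264, 3461 and 4919.9 at day 5. GFP-negative cells had 3194, 2656 and 2887 at day 4 and 3471, 3683 and 4022 at day 5. For Tet3, day 2 to day 3 (0.37 ± 0.24) and day 3 to GFP-negative day 4 (0.54 ± 0.24) did not pass with all libraries (limma adjusted p = 0.332 and 0.131) and did without day 0 replicate 1 (0.0468 and 0.0042).

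Tet1 fell relative to Tet3. The mean log2 ratio of their normalized counts, Tet1 over Tet3, was 4.08 at day 0, 3.29, 2.15 and 1.36 at days 1, 2 and 3, and -0.92 and -0.95 in GFP-positive cells at days 4 and 5; in GFP-negative cells it was 0.22 and -0.39. Each step from day 0 to day 3, and that from day 3 to either fraction at day 4, had groups that did not overlap (exact permutation p = 0.1 each, the smallest possible). In GFP-positive cells days 4 and 5 overlapped (exact permutation p = 1). Per kilobase of transcript the order of these genes was the same, except in GFP-negative cells at day 4. Tet1 was above Tet3 at day 3 (358 ± 33.7 against 184 ± 12.8, SD, n = 3) and below it in GFP-positive cells at day 4 (150.3 ± 30.6 against 371 ± 34.7). In GFP-negative cells at day 4, where the count ratio is above 0, Tet1 was at 239 ± 45.6 and Tet3 at 267 ± 24.7 per kilobase, with overlapping libraries.

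**Figure D4:**
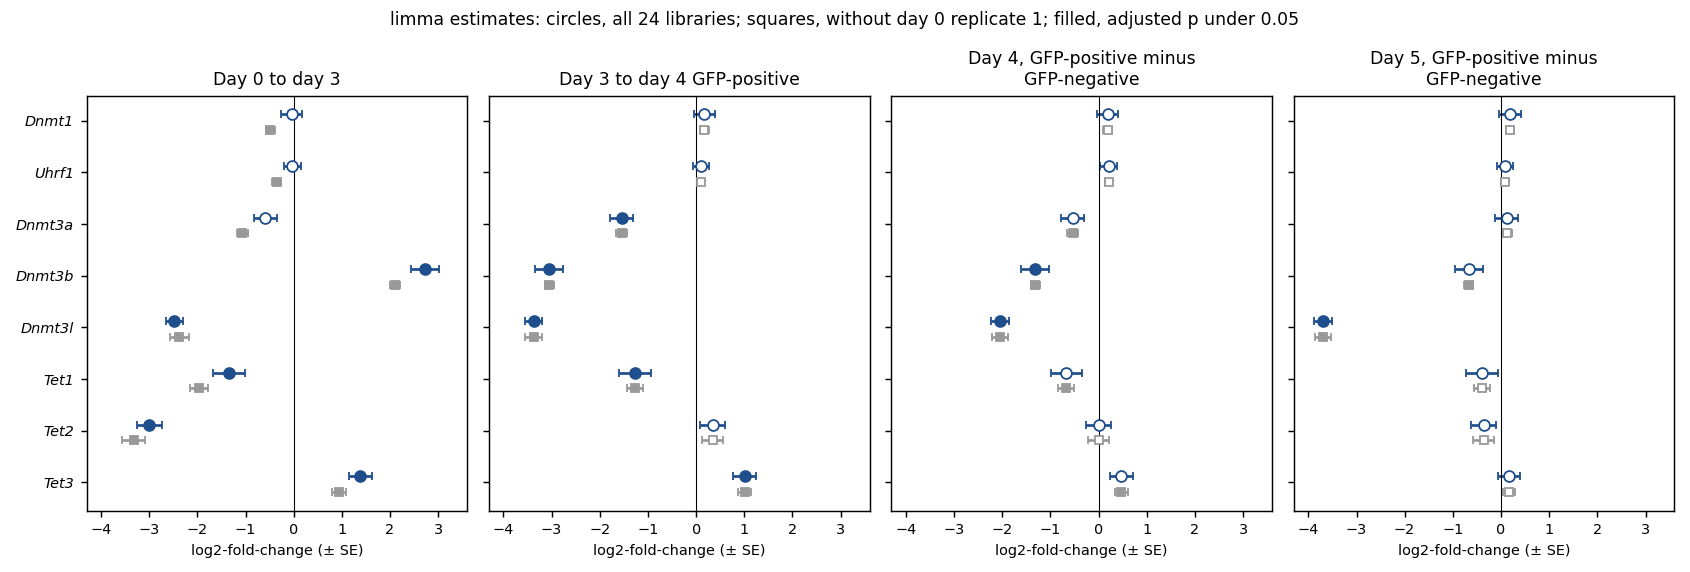
Log2-fold-changes ± SE (horizontal axes) of the 8 genes in 4 comparisons; circles are the fit of all 24 libraries, squares that without day 0 replicate 1, and filled symbols have an adjusted p under 0.05. Dnmt3l lies at -2.04 and -3.69 in the comparisons of GFP-positive with GFP-negative cells, whereas Dnmt1 and Uhrf1 lie within 0.21 of 0 there.

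With all libraries, the GFP-positive and GFP-negative fractions differed at 2 of the 8 genes at day 4 and at 1 at day 5. At day 4, 2 were lower in GFP-positive cells and none higher, where 11.3% and 4.43% of all genes tested were lower and higher; without day 0 replicate 1 the counts were 4 and 1, against 14.3% and 8.12%. Dnmt3l was 4.12-fold lower (log2-fold-change -2.04 ± 0.18, limma adjusted p = 4.48e-08) and Dnmt3b 2.49-fold lower (limma adjusted p = 0.00271). Dnmt3a (-0.54 ± 0.24), Tet1 (-0.67 ± 0.32) and Tet3 (0.47 ± 0.24) did not pass with all libraries (limma adjusted p = 0.154, 0.198 and 0.218) and passed without that library (0.000756, 0.00467 and 0.0116). At day 5, 1 was lower and none higher (12.3% and 3.78% of all genes): Dnmt3l, by 12.9-fold (log2-fold-change -3.69 ± 0.18, limma adjusted p = 8.66e-12). Dnmt3b differed by -0.67 ± 0.29 at day 5 (limma adjusted p = 0.138, and 1.11e-05 without day 0 replicate 1).

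The gate difference itself changed between days 4 and 5 for 1 gene, where 0.571% of all genes had a lower and 0.528% a higher difference at day 5. For Dnmt3l the interaction was -1.65 ± 0.25 on the log2 scale (limma adjusted p = 0.00126), as it fell 4.36-fold between the days in GFP-positive cells (limma adjusted p = 7.53e-08), while in GFP-negative cells its difference, -0.47 ± 0.18, did not pass (limma adjusted p = 0.107). The GFP-negative difference passed with quantile normalization (-0.55, limma adjusted p = 0.0405) and when only the groups compared were fitted (limma adjusted p = 0.0468). Without day 0 replicate 1 the interaction of Dnmt3b, 0.64 ± 0.13, and of Dnmt3a, 0.66 ± 0.15, also passed (limma adjusted p = 0.00701 and 0.0175).

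Markers of other cell types moved with these sorts, where 11.3% of all genes were lower and 4.43% higher in GFP-positive cells at day 4, and 12.3% lower and 3.78% higher at day 5. Mesoderm markers (T, Mixl1, Mesp1) summed to 2438 to 4082 in GFP-negative and 124 to 289.5 in GFP-positive cells at day 4, and 3 of 3 were lower in GFP-positive cells on both days. Endoderm markers (Sox17, Foxa2, Gata6) summed to 1346 to 1888 and 60.9 to 149 at day 4, again with 3 of 3 lower, and 3 of 3 pluripotency markers were lower on both days. Germ cell markers (Prdm1, Dppa3, Dnd1, Nanos3) summed to 391 to 493 in GFP-negative and 74.9 to 105 in GFP-positive cells at day 5; Nanos3 had at most 12.6 in any day 4 or day 5 library. Endothelial markers (Kdr, Pecam1, Cdh5, Tek) were lower in GFP-positive cells for 4 of 4 at day 4 and 3 of 4 at day 5, and of the neuronal markers Tubb3 and Dcx, 1 was higher on each day. The part of each of these cell types in the differences of Dnmt3l and Dnmt3b was not tested.

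The ratios above are of normalized counts, which are not corrected for length, so the order of levels between genes is given per kilobase of the longest coding transcript. On this scale Dnmt3l led at day 0 (9937 ± 1704 per kb, SD, n = 3), followed by Uhrf1 (5872 ± 2069) and Dnmt3b (5252 ± 2971), which overlapped. Dnmt3b led at days 1, 2 and 3, with 29670.0 ± 2691 per kb at day 3 against 5500.0 ± 452 for Uhrf1 and 2715 ± 149 for Dnmt1. In GFP-positive cells at day 5 the order was Uhrf1 (5151 ± 488), Dnmt1 (3346 ± 283), Dnmt3b (1305 ± 22.3), Dnmt3a (458 ± 20.3), Tet3 (387 ± 67.0), Tet1 (151 ± 9.76), Tet2 (51.0 ± 6.28) and Dnmt3l (38.6 ± 2.68). Dnmt3a and Tet3 overlapped there, and the other neighbours did not. The cofactor that headed the order at day 0 was thus last, and the maintenance pair was first.

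Partners of the methyltransferases gave no common direction. Of 20 genes (among them Trim28, Hells, Ehmt2, Nsd1 and Pcna), 5 rose and 3 fell from day 0 to day 3, and 3 rose and 7 fell from day 3 to GFP-positive day 4; the medians were 0.03 and -0.05, against -0.04 and -0.01 over all genes tested, of which 21.1% rose and 22.6% fell in the first and 17.1% and 20.9% in the second comparison. Without day 0 replicate 1, 12 and 13 changed, and 24.1% and 26.1%, and then 21.4% and 25%, of all genes rose and fell in that fit. Dppa3 and Prdm14, which are known to oppose methylation in pluripotent and germ cells, each fell in at least 1 of these comparisons. Dppa3, which blocks UHRF1, had 172, 206 and 227 at day 3 and 0, 11.7 and 2.15 in GFP-positive cells at day 4, where its log2-fold-change was -5.88 ± 0.55 (limma adjusted p = 2.45e-08). Its difference from day 0 to day 3, -1.10 ± 0.55, did not pass (limma adjusted p = 0.116). Prdm14, a repressor of Dnmt3b and Dnmt3l in naive mESCs, had 641, 964 and 912 at day 0 and 90.3, 81.9 and 86.3 at day 3, a log2-fold-change of -3.25 ± 0.42 (limma adjusted p = 2.19e-06). Zfp57, which guards methylation at imprinted loci, fell from day 0 to day 3 (log2-fold-change -2.50 ± 0.20, limma adjusted p = 2.37e-09), and Cdca7l, a paralog of the HELLS activator CDCA7, rose (1.50 ± 0.14, limma adjusted p = 1.37e-08). Hells, a chromatin remodeller needed for methylation, fell from day 3 to GFP-positive day 4 by 0.53 ± 0.19 on the log2 scale (limma adjusted p = 0.0357).

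Of 8 genes from families that read methylated DNA (called readers here), 4 rose and 3 fell from day 0 to day 3 (median 0.35). From day 3 to GFP-positive day 4, 1 rose (median 0.24), and 2 changed without day 0 replicate 1. Of all genes, 21.1% rose and 22.6% fell in the first and 17.1% and 20.9% in the second comparison. Zbtb38 changed most, with a log2-fold-change of -1.63 ± 0.17 from day 0 to day 3 (limma adjusted p = 1.61e-07). Among 16 genes linked to demethylation, 5 rose and 5 fell from day 0 to day 3, and 4 rose and 4 fell from day 3 to GFP-positive day 4 (medians -0.04 and -0.17; 10 and 11 changed without day 0 replicate 1), beside the same shares of all genes. In the fit without that library, 24.1% and 26.1%, and then 21.4% and 25%, of all genes rose and fell. Cxxc4, which binds TET2 and lowers its protein level, rose from day 0 to day 3 by 3.21 ± 0.29 on the log2 scale (limma adjusted p = 1.36e-08). The stress-inducible Gadd45a, Gadd45b and Gadd45g fell over the same days, with log2-fold-changes of -2.22, -3.77 and -1.57 (limma adjusted p = 1.15e-12, 1.19e-09 and 0.00024), and Gadd45g was lower in the GFP-positive fraction at day 5 (log2-fold-change -2.83 ± 0.30, limma adjusted p = 5.13e-07). Day 0 replicate 1 had 1760 for Gadd45b, where the other day 0 libraries had 668 and 617. For Gadd45g it had 329, where they had 813 and 821. Apobec1, a cytidine deaminase, fell by 1.93 ± 0.345 from day 0 to day 3 (limma adjusted p = 0.000108). Tdg, the glycosylase that excises the oxidized bases, rose by 0.69 ± 0.09 over these days (limma adjusted p = 4.25e-06).

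Most germline genes fell from day 3 to GFP-positive day 4. The list holds 13 genes active in germ cells, many known to be silenced by promoter methylation, and 12 were tested; Asz1 was too low. From day 0 to day 3, 8 fell and 2 rose (median -1.17), where 22.6% and 21.1% of all genes fell and rose. Without day 0 replicate 1, 6 fell and 2 rose, beside 26.1% and 24.1%. When only the groups compared were fitted, 6 changed, beside 26.6% of all genes. From day 3 to GFP-positive day 4, 10 of the 12 fell and none rose (median -2.32, against -0.01 over all genes, of which 20.9% fell), and Sycp1 (-0.19, limma adjusted p = 0.729) and Brdt (-0.33, limma adjusted p = 0.411), both named after their values were seen, did not pass. In the GFP-negative fraction 7 of the 12 fell (median -1.32), beside 9.01% of all genes. At day 5, 8 of the 12 were lower in the GFP-positive fraction (median -1.19), beside 12.3% of all genes. With quantile normalization 5 of them differed there, beside 14% of all genes. Dazl, a germ cell RNA-binding protein, had 842, 744 and 733 normalized counts at day 0, 109, 186 and 196 at day 3, and 4.55, 7.33 and 2.58 in GFP-positive cells at day 4. These groups did not overlap, and the fall from day 3 was 29.0-fold (limma adjusted p = 3.83e-10). Mael, Hormad1, Sycp3 and Tuba3a also passed, with log2-fold-changes between -5.04 (Hormad1) and -2.78 (Tuba3a). Sycp3, a component of the synaptonemal complex, differed in direction before day 3: it rose by 2.05 ± 0.61 from day 0 (limma adjusted p = 0.00951). Its day 0 libraries had 4320.0, 346 and 389 normalized counts, the first being replicate 1, and without that library the rise was 3.23 ± 0.35 (9.40-fold against 4.13-fold, limma adjusted p = 1.89e-07). DNA methylation was not measured in these libraries.

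**Figure D5:**
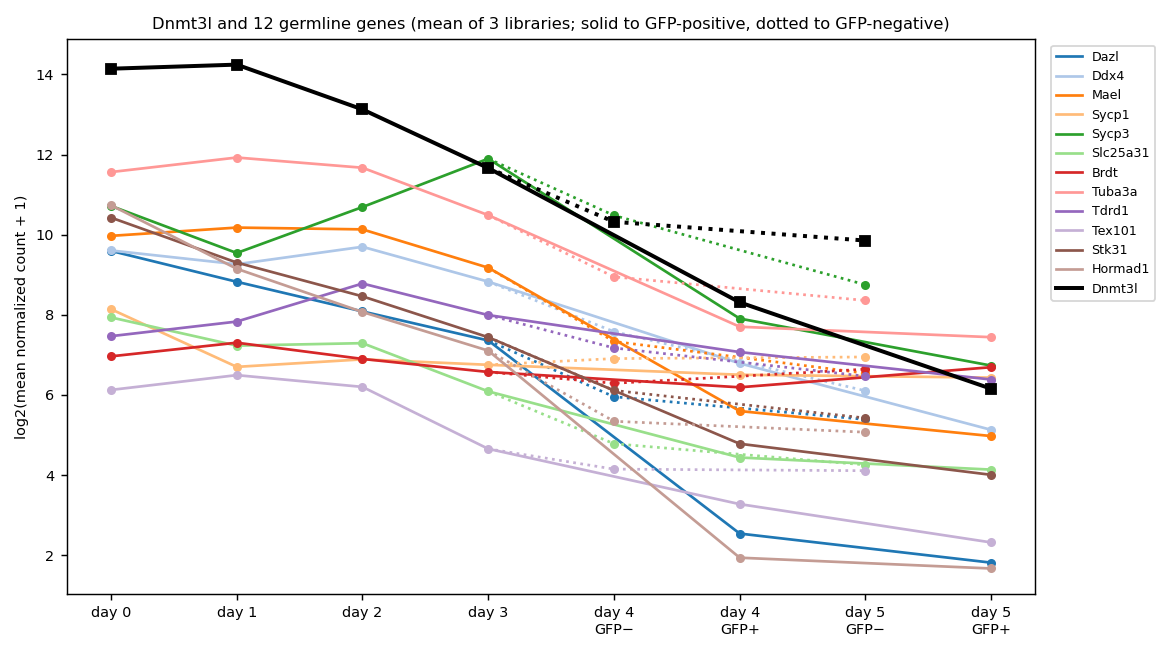
Log2 of the mean normalized count + 1 (vertical axis) by group (horizontal axis) for Dnmt3l (black) and the 12 germline genes that were tested; solid lines lead to GFP-positive and dotted lines to GFP-negative cells. Dazl and Hormad1 end lowest, at means of 2.52 and 2.18 normalized counts in day 5 GFP-positive cells.

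The naive pluripotency genes (Nanog, Klf4, Klf2, Esrrb, Zfp42, Tbx3, Tfcp2l1) fell in 7 of 7 cases from day 0 to day 3 (median -2.49) and again from day 3 to GFP-positive day 4 (median -4.01), where 22.6% and 20.9% of all genes fell, while the formative genes Fgf5, Otx2 and Pou3f1 rose in 3 of 3 cases from day 0 to day 3 (median 2.00), beside 21.1% of all genes. From day 3 to GFP-positive day 4, Fgf5 and Pou3f1 fell and Otx2 did not pass (median -1.37). Among genes with a mean of at least 100 normalized counts, those whose log2 values were most like Dnmt3l over the 24 libraries were Dppa4 (Pearson r = 0.992), Dppa5a (0.991) and Tex19.1 (0.991). Those most like Dnmt3b were Atp10a (0.987), Abcg1 (0.973) and Slc35d3 (0.967), and those most like Tet3 were Zbtb39 (0.987), Celsr2 (0.986) and Cadm1 (0.983). For Dnmt3a they were Csrnp1 (0.987), Trap1 (0.984) and Odc1 (0.983), and for Tet1 Bicral (0.964), Tanc1 (0.963) and Ipmk (0.962). The likeness was lower for Tet2 (Tm7sf3, 0.939), Uhrf1 (Rpap1, 0.937) and Dnmt1 (Prdm2, 0.936). Among the 8 themselves, Dnmt3l and Tet3 had the most opposed values (Pearson r = -0.894) and Dnmt3a and Tet1 the most alike (0.898). These coefficients describe 24 libraries that share days and sorts, and day 0 replicate 1 enters all of them.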

How the data were processed

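RNA-seq libraries (TruSeq) were analysed for 24 samples in 8 groups of 3. The deposited table holds a signal per gene: the authors' kallisto 0.43.1 estimated counts divided by DESeq2 size factors (version not stated), on mm10 according to the submitters' processing notes. Strandedness and length correction are not given in the sources used here. Whole reads could not be recovered from the low values, so no count model was run. Other columns hold the authors' own calls between days and were not used.

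Values were tested as log2(value + 1) with limma 3.58.1 (in R 4.3.3), with a mean-variance trend, in 1 fit of all 24 libraries. Genes needed 10 or more normalized counts in 3 or more libraries (21005 of 49705 entries), and p-values were adjusted by Benjamini-Hochberg over all genes tested. Fold changes are on the log2(value + 1) scale and understate those of low genes. The study describes the replicates as biological triplicates of organoid cultures of 1 line. Its main methods do not say whether these were separate differentiations. The p-values thus measure the spread between samples of that line, day 0 replicate 1 included. No 2 replicates held identical values. Ratios of 2 genes were compared by two-sided exact permutation tests (scipy 1.17.1, Python 3.11.15). The limma step was tested on simulated data.

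The genes and lists were chosen with earlier results of these data known. Named list genes were the 5 with the largest change per list and comparison among those with adjusted p under 0.001 and a log2-fold-change beyond 1.5, plus Dppa3, Prdm14, Uhrf2, Hells, Tdg, Nanog and Rax. Genes most like a member were the 3 with the highest Pearson r among tested genes with a mean of at least 100. Alternatives covered the pseudocount, the filter, quantile normalization, the trend, a replicate block over all days or within days 4 and 5, the samples fitted, the thresholds and each library left out.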

Additional observations from a re-analysis of the deposited data

Results flagged for a closer look

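The difference of Dnmt3l between GFP-positive and GFP-negative cells was not the same on both days. It was -2.04 at day 4 and -3.69 at day 5 on the log2 scale, and the interaction of -1.651 passed the test of the difference itself (limma adjusted p = 0.00126; 0.000457 without day 0 replicate 1). All 3 GFP-positive libraries were below all 3 GFP-negative libraries on each day.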

How the results depend on the processing

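Of 96 gene results (8 genes in 12 comparisons), 96 kept their direction and side of the threshold with a pseudocount of 0.5 or 5, 95 without the filter or without the trend, 94 with a filter of 50, 85 with quantile normalization, 77 when only the groups compared were fitted (3 lost and 16 newly passed) and 76 without day 0 replicate 1 (17 newly passed and 3 changed sign). Same-numbered libraries of all groups had a mean correlation of -0.001, with 10 of 84 pairs over 0.1. A replicate block over all days changed 0 of the 96 calls, with Dnmt3l from day 0 to day 3 at -2.48. Within days 4 and 5, where both fractions were sorted from organoids of the same day, same-numbered fractions correlated at -0.108 to 0.147. Differently numbered fractions correlated at -0.212 to 0.184. These correlations of deviations from means of 3 cannot tell whether same-numbered fractions came from the same organoids. A replicate block within these days, added after the data were seen, left 2, 1 and 1 genes changed at day 4, at day 5 and in their difference (13.6%, 14.1% and 0.738% of all genes). Tet3 from day 1 to day 2 was lost without the filter and without the trend (limma adjusted p = 0.0623 and 0.0595). Sign changes of values that print as 0.00 (Dnmt1 in the gate difference, Dnmt3b from day 2 to day 3) were not counted as reversals. The causes of the changes below were not tested. When only the groups compared were fitted, the number of the 8 genes that changed was 0 from day 0 to day 1, 7 from day 1 to day 2, 5 from day 3 to GFP-negative day 4, 5 and 3 between the fractions at days 4 and 5, 3 between days 4 and 5 in GFP-negative cells and 3 for the gate difference. The shares of all genes that changed in these fits were 0.415%, 34.6%, 19.0%, 21.8%, 20.6%, 14.4% and 3.81%. In the lists it was then 5 methylation partners, 4 readers, 6 germline and 0 replication genes from day 0 to day 3, 3 readers and 5 replication genes from day 3 to GFP-positive day 4, and 5 methylation partners and 2 replication genes between the fractions at day 5, beside 26.6%, 47.3% and 20.6% of all genes. With the study's thresholds the genes called were 1, 1 and 0 for the 3 daily steps, 3 from day 0 to day 3, 3 and 1 from day 3 to the GFP-positive and GFP-negative fractions, 1 between the fractions at day 4, 1 between days 4 and 5 in GFP-positive cells and 0 for the gate difference, beside 0.738%, 1.47%, 1.00%, 12%, 10.7%, 2.88%, 3.96%, 1.49% and 0.109% of all genes. With quantile normalization 2 genes changed between days 4 and 5 in GFP-negative cells (10.9% of all genes), 5 replication genes from day 3 to GFP-positive day 4, and 0 replication and 5 germline genes between the fractions at day 5 (37.8% and 14% of all genes in these comparisons); the Dnmt3a to Dnmt3b ratio changed by 1.42 from day 3 to GFP-positive day 4. It also turned the sign of values that had not passed: Dnmt1 to 0.027 (day 2 to 3), 0.044 (day 0 to 3) and 0.067 (day 3 to GFP-negative day 4), Uhrf1 to 0.048 (day 0 to 3), 0.010 (day 3 to GFP-negative day 4), -0.059 (fractions at day 5), 0.069 (GFP-negative day 4 to 5) and 0.068 (day 0 to GFP-positive day 5), and Tet1 to -0.007 (GFP-positive day 4 to 5).

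Leaving out 1 library at a time, the number of the 8 genes that changed ran from 2 to 4 (day 0 to 1), 2 to 5 (day 1 to 2), 5 to 8 (day 0 to 3), 3 to 5 (day 3 to GFP-negative day 4), 2 to 5 and 1 to 2 (fractions at days 4 and 5), 1 to 2 (GFP-negative day 4 to 5) and 1 to 3 (gate difference). The shares of all genes ran from 6.47% to 14.0%, 11% to 24.3%, 38.1% to 50.2%, 13.9% to 26.5%, 11.8% to 22.4%, 12.6% to 22.7%, 6.47% to 18.1% and 0.712% to 3.14% in the same order. The highest count came without day 0 replicate 1, or without day 0 replicate 2 for day 0 to 1. Values that crossed 0 were Dnmt1 (-0.24 to 0.50 from day 0 to 1, -0.48 to 0.26 from day 0 to 3, -0.052 to 0.025 from day 3 to GFP-negative day 4, -0.18 to 0.56 from day 0 to GFP-positive day 5), Uhrf1 (-0.35 to 0.19 from day 0 to 3, -0.45 to 0.10 from day 0 to GFP-positive day 5), Dnmt3l (-0.061 to 0.231 from day 0 to 1), Tet3 (-0.15 to 0.58 from day 0 to 1, -0.071 to 0.183 from GFP-positive day 4 to 5), Tet2 (-0.10 to 0.26 from day 2 to 3, -0.27 to 0.24 between the fractions at day 4) and Tet1 (-0.15 to 0.14 from GFP-positive day 4 to 5). In the lists, readers and replication genes from day 3 to GFP-positive day 4 ran from 1 to 2 and 2 to 4, and methylation partners, readers, demethylation and replication genes between the fractions at day 5 from 3 to 7, 1 to 2, 2 to 5 and 0 to 6, beside 31.9% to 46.4% and 12.6% to 22.7% of all genes. Depth was not available as read counts, so its limit on low genes such as Dppa3 in GFP-positive cells was not quantified.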
